A study of Mus musculus with 6 samples.

Results

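Of 34742 open-chromatin intervals found on chromosomes 1 to 19 of 3 mouse cell lines, 4341 (12.5%, 95% Wilson interval 12.2 to 12.8) held an ATAC-seq peak of all 3 lines, and these are called the common sites here. An interval was the union of peaks that overlapped by at least 1 bp, so the common sites were chosen by the peak calls of all 3 lines, and their number and peak heights are given as a description with no test. Another 6347 intervals held peaks of 2 lines and 24054 held peaks of a single line. Among the common sites 3409 lay at promoters, within 1000 bp of an annotated transcript start, and 932 were distal.

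The lines were Pax6-HIGH cells (β-TC3), isolated from a mouse insulinoma; Pax6-ON cells (MV+), grown out of lens epithelia of a wild-type C57BL6 mouse; and Pax6-OFF cells (RAG), from a renal adenocarcinoma of a BALB/c mouse. No line carried a treatment, and all were grown in the same medium. Nuclei of Pax6-ON cells were released with 0.2% NP40 and those of the other lines with 0.1%, a step that cannot be told apart from the line. Both replicate libraries of a line were pooled by the authors before peaks were called. Spread between replicates is therefore unknown, and each line stands alone for its cell type. Fragments numbered 100254099, 130955836 and 102223606 for Pax6-HIGH, Pax6-ON and Pax6-OFF, respectively. From these came 27172, 9418 and 13394 autosomal peaks in the same order, and the lowest number of fragments at a peak summit (the pileup) was 25, 30 and 25. Pax6-ON cells thus had the most fragments and the fewest peaks. At the starts of 8 insulinoma marker genes, Pax6-HIGH cells had peaks at 4 (Pax6, Neurod1, Nkx6-1 and Chga) and none at Ins1, Ins2, Iapp or Pdx1. Pax6 and Nkx6-1 had Pax6-ON peaks too. Of 8 lens markers Pax6-ON cells had peaks at 3 (Pax6, Prox1 and Maf), which were also the 3 with a peak in Pax6-HIGH cells. Pax6-OFF cells had peaks at 3 as well (Maf, Pitx3 and the crystallin gene Cryab), so the lens list did not set Pax6-ON cells apart. Of the renal tubule markers, Pax6-OFF cells had peaks at Pax2, Emx2 and Cdh16 and none at Pax8 or Lhx1, and Emx2 had a Pax6-ON peak too. Maf, a lens transcription factor, was the only marker named here with a common site, with pileups of 70, 42 and 51 fragments in Pax6-HIGH, Pax6-ON and Pax6-OFF cells.

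In ATAC-seq the Tn5 transposase cuts into DNA that nucleosomes leave exposed. Most promoters of broadly expressed genes sit in CpG islands, stretches rich in unmethylated CG dinucleotides that are kept open in nearly all cells and bind factors such as Sp1 and its relatives, NF-Y (at the CCAAT box), ETS proteins and NRF1. Distal open sites are mostly enhancers and differ between cell types, while binding sites of CTCF, the factor that helps to fold chromosomes into domains, are the distal sites best known for being shared by many cell types. Interspersed repeats and multicopy genes can also be open, but short reads from such DNA cannot always be placed at the copy they came from.

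To show which sequences the common sites hold, 201 bp windows around the peak summits were searched on both strands for short motifs and for repetition. Each 36-base word of a window was counted in the whole reference, and a site was called repeated where over 10% of its words occurred elsewhere and single-copy otherwise. Single-copy thus refers to the reference, and copies that it lacks were not counted. Of the 932 distal common sites, 589 were repeated and 343 single-copy. All sequences below are from NCBIM37 (mm9), forward strand, centred on a summit and outside annotated exons, and the examples were chosen after the values were seen as the sites of highest mean pileup percentile in each set that hold the marked motifs. Repeated sites that shared at least 1 word of 36 bases were grouped, so the sites of a group are linked by copied sequence. A motif that recurs within a group describes that sequence, and its count is not one of separate matches. The largest group held 98 sites on 19 chromosomes. Of these 98 sites, 95 had the CCAAT box, which binds NF-Y, against 24.5% of all 23049 distal windows, and their words had a median of 2183 copies in the genome. Capitals in these windows mark CCAAT, here read on the reverse strand.
CCAAT group, site A (chr5:68612164-68612364, + strand): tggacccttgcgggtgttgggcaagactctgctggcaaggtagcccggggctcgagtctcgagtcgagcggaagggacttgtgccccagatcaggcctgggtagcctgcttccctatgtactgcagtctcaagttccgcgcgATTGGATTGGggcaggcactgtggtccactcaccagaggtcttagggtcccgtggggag
CCAAT group, site B (chr10:27543463-27543663, + strand): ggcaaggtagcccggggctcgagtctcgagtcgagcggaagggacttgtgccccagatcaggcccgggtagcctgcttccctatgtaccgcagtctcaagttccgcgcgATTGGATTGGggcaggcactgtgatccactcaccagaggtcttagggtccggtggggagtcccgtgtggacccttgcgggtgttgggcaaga

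Sites A and B lie on different chromosomes, 109 and 202 kb from the nearest coding starts (Grxcr1 and Lama2), yet shared 37 of 166 words, with the pair of CCAAT boxes side by side in both. Site A had 133, 244 and 236 fragments and site B 160, 134 and 176, in the order Pax6-HIGH, Pax6-ON, Pax6-OFF.

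The next group held 65 sites on 18 chromosomes, with a median of 1822 copies per word. The YY1 motif AAGATGGCG was in 56 of them against 507 of all 23049 distal windows, and the ETS motif CCGGAAG was in 44 against 2.43%. YY1 is a zinc finger protein of promoters and enhancers. Capitals mark both motifs or their complements in the following windows.
YY1 and ETS group, site A (chr8:53391778-53391978, + strand): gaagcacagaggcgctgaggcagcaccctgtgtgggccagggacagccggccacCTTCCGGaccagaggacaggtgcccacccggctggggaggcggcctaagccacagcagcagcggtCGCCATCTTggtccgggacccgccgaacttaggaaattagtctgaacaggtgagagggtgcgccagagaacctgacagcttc
YY1 and ETS group, site B (chr7:14672618-14672818, + strand): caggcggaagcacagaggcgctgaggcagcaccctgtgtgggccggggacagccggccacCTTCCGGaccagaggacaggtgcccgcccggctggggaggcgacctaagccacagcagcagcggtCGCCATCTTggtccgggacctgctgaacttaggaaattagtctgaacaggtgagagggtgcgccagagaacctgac
Another group of 21 sites on 14 chromosomes had GGGCGG, the box bound by Sp and KLF factors, in all 21 sites and the YY1 motif in 20. In its example the 2 motifs, in capitals, run into each other.
YY1 and Sp/KLF group (chr6:56197232-56197432, + strand): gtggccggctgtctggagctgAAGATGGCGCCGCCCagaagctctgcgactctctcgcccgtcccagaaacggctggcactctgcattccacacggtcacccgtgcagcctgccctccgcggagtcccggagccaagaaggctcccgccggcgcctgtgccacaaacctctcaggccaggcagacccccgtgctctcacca

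In contrast to these dispersed groups, 1 group of 11 sites lay on chromosome 6 alone, between 47604811 and 47713684, and its words had a median of 14 copies. All 11 sites had the B box GTTCGANNC, the internal promoter element that TFIIIC reads in tRNA genes, against 0.295% of all distal windows, although the annotation used holds no gene start within 1000 bp of them. A match alone does not make them tRNA genes, and what these sites encode was not tested. Capitals mark the B box on the reverse strand.
B box group (chr6:47694123-47694323, + strand): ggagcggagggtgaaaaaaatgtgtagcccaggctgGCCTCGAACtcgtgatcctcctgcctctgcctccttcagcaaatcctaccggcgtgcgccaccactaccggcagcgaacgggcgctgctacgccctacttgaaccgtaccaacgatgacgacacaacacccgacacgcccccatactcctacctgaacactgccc
The B box was also in 3 single-copy distal common sites, and the example with the highest pileup rank lay 13.5 kb from the start of Klrb1c.
Single-copy B box site (chr6:128753122-128753322, + strand): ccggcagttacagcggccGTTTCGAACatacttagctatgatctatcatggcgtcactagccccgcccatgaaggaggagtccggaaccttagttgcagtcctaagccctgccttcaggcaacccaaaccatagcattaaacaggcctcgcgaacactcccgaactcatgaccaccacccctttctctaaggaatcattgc

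Of the single-copy distal common sites, 113 of 343 held TGANTCA, the site of AP-1 (Fos and Jun dimers), against 4478 of all 17892 single-copy distal windows, and the highest-ranked lay in an intron of Sfi1. The second lay 5.74 kb from the start of Zfp869. Capitals mark the AP-1 motif.
AP-1 site A (chr11:3059739-3059939, + strand): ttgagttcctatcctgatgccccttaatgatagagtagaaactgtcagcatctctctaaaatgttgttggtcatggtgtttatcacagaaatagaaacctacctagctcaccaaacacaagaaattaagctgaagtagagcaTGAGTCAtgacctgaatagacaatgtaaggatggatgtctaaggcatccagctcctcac
AP-1 site B (chr8:72240881-72241081, + strand): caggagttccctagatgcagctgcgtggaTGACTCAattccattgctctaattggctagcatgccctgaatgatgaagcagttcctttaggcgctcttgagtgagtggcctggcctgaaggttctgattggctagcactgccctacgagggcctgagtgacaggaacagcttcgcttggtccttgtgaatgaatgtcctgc
The core of the CTCF motif, CCNNNAGNNGGC, was in 35 of these 343 sites. The highest-ranked of them, with the core in capitals, lay 26.2 kb from the start of Scd2.
CTCF core site (chr19:44341484-44341684, + strand): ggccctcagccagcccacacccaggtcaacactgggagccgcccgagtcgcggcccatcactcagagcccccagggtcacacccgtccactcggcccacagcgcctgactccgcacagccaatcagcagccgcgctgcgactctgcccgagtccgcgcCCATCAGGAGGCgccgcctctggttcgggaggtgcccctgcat

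For the promoters, the highest-ranked single-copy windows that touch no exon were those of Sp4, which encodes a member of the Sp family, and Leprot, which encodes a small membrane protein. In the first, capitals mark 2 Sp/KLF boxes, and in the second the CCAAT boxes (on either strand), an Sp/KLF box and a CTCF core that overlaps it.
Sp4 promoter (chr12:119540533-119540733, + strand): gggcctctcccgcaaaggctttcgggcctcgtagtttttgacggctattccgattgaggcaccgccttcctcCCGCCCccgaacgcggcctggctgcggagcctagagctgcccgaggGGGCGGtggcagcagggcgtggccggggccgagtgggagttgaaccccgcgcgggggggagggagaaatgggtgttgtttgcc
Leprot promoter (chr4:101319827-101320027, + strand): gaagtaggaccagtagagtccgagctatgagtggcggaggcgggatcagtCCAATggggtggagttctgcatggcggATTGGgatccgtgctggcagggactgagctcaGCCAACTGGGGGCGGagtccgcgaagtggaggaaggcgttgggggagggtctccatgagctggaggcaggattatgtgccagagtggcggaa

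Promoters made up a larger share of intervals with each line added. They were 18.4% of single-line intervals (17.9 to 18.9), 60.9% of 2-line intervals (59.7 to 62.1) and 78.5% of common sites (77.3 to 79.7). Distal common sites were 932 of 23049 distal intervals. Among distal intervals the repeated share went the same way, from 18.3% of single-line (17.7 to 18.8) and 39.5% of 2-line (37.6 to 41.4) to 63.2% of common sites (60.1 to 66.2). Of promoters, 8.39%, 5.41% and 5.46% were repeated. A distal common site was therefore more often repeated than single-copy, and the part of read placement in this was not tested. Of the 2-line intervals 4478 (70.6%) lacked a Pax6-ON peak, 959 a Pax6-OFF peak and 910 a Pax6-HIGH peak.

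**Figure D1:**
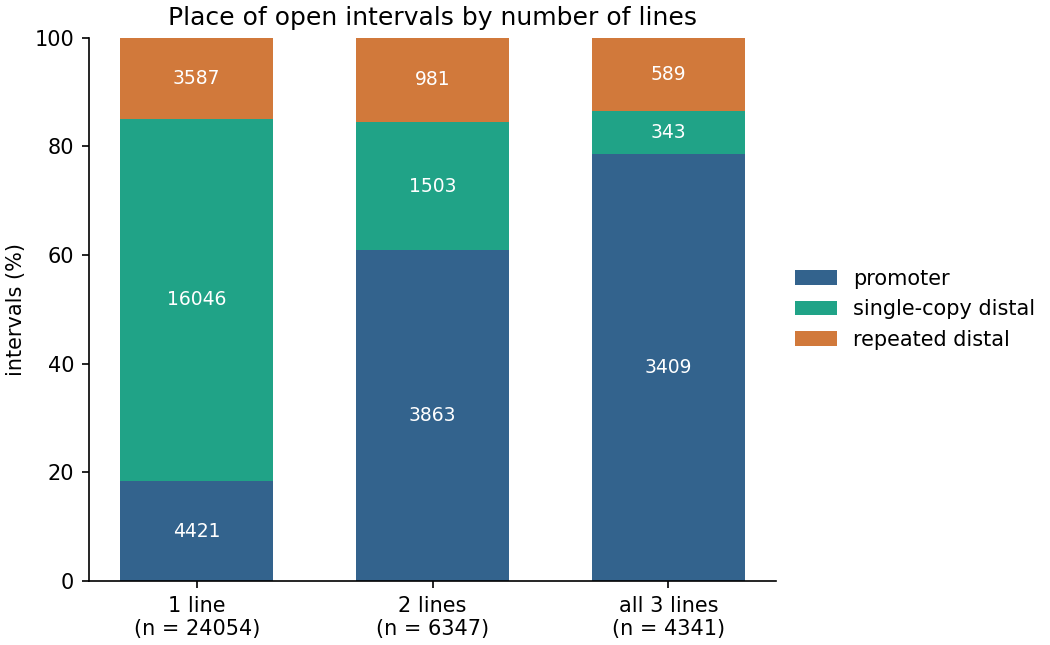
Share of intervals (%, vertical axis) that lay at promoters, at single-copy distal and at repeated distal places, for intervals of 1 line, 2 lines and all 3 lines, with the number of intervals written in each bar. Promoters went from 18.4% to 78.5%, while single-copy distal intervals went from 16046 of 24054 to 343 of 4341.

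In most common sites the peaks coincided. A single peak of each line formed 4241 of the 4341 sites, all but 13 had a base covered by all 3 lines, and the median width of that shared part was 423 bp in sites with a median length of 867 bp. The summits of the 3 lines lay within 200 bp of each other in 86.5% of promoter sites, 79.9% of single-copy distal sites and 56.9% of repeated distal sites. Repeated sites were also the longest distal sites, with a median of 1065 bp against 729 bp for single-copy ones. The weakest peak of a common site was seldom near the q-value cut of the calls, 0.05. Only 15 sites had a peak with a −log10 q-value under 2, and the lowest was 1.40, at a repeated site in an intron of Rbm20 with 25, 40 and 51 fragments in Pax6-HIGH, Pax6-ON and Pax6-OFF cells. Next came the Creb5 promoter (30, 43 and 63 fragments), weakest in Pax6-HIGH cells, and the Phtf1 promoter (81, 47 and 25), weakest in Pax6-OFF cells. The tables list called peaks only, so an interval that just missed the rule has no value in the line it lacked. The median over 2-line intervals of the mean pileup percentile was 50.6 against 69.5 for common sites, and 1270 of the 6347 were above the latter.

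Common sites took 46.7% of the peaks of Pax6-ON cells, the line with the fewest, but 32.9% of Pax6-OFF and 16.1% of Pax6-HIGH peaks. When each line's peaks were ranked by pileup, the share inside a common site was 1.47% in the lowest decile of Pax6-HIGH peaks and 60.9% in the highest. In Pax6-OFF cells it was 7.11% and 79.7%. In Pax6-ON cells it was already 42.3% in the lowest decile, between 38.0% and 52.9% in deciles 2 to 9, and 69.4% in the highest. Strong peaks were thus more often common in every line, and weak peaks were often common only in the line with few calls.

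**Figure D2:**
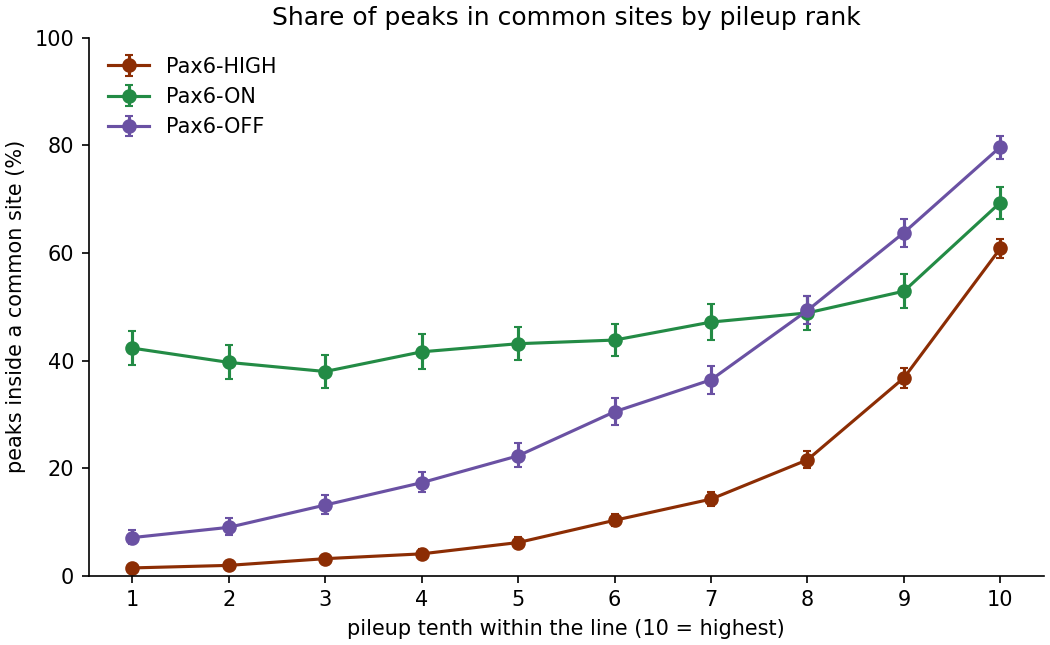
Share of each line's peaks that lie in a common site (%, vertical axis) by decile of pileup within the line (horizontal axis, 10 the highest), with 95% Wilson intervals that cover counting error. Pax6-ON cells start at 42.3% and Pax6-HIGH cells at 1.47% in the lowest decile.

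The common promoters stood high in Pax6-HIGH cells, where their median pileup percentile among that line's peaks was 87.4 (interquartile range 75.0 to 95.1, 121 fragments). In Pax6-OFF cells the median was 77.5 (57.8 to 89.3, 74 fragments) and in Pax6-ON cells 58.6 (32.6 to 81.1, 67 fragments). For single-copy distal sites the medians were 74.5, 63.2 and 55.9, and for repeated distal sites 64.4, 76.8 and 41.9, in Pax6-HIGH, Pax6-OFF and Pax6-ON cells. Repeated sites therefore ranked above single-copy ones in Pax6-OFF cells but below them in the other lines. Single-line distal single-copy peaks had median percentiles of 40.4, 25.5 and 47.0 in the same order. The percentiles depend on how many peaks each line has, and with no replicate values the differences between lines have no test. The local enrichment gave the same order of lines for common promoters, with median folds over the local background of 6.02 in Pax6-HIGH, 5.43 in Pax6-OFF and 4.41 in Pax6-ON cells.

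**Figure D3:**
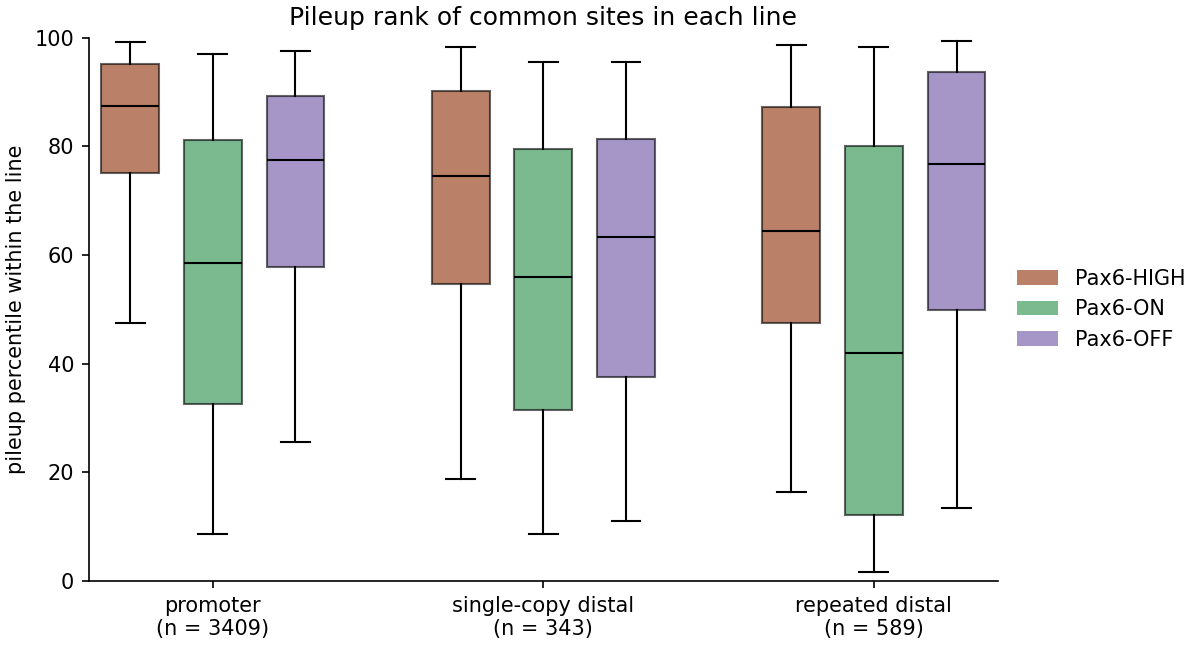
Pileup percentile within a line (vertical axis) of the 3409 promoter, 343 single-copy distal and 589 repeated distal common sites, with boxes for the interquartile range, a bar for the median and whiskers from the 5th to the 95th percentile. The Pax6-ON boxes are the lowest of each set, with medians of 58.6, 55.9 and 41.9.

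Across sites, the order of pileup ranks was shared between lines to a different degree by kind of site. Spearman's rho between pairs of lines was 0.47 to 0.55 over the 3409 promoters, 0.28 to 0.40 over the 343 single-copy distal sites and 0.66 to 0.69 over the 589 repeated sites. These values describe sites and not replicates, and the sites of a line share its library. On chromosome 6 the 299 common sites had a median percentile of 96.9 in Pax6-HIGH cells against 84.5 for the 4042 sites elsewhere, while the medians of Pax6-ON cells were 59.9 and 57.3 and those of Pax6-OFF cells 73.7 and 76.8.

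The 10 distal single-copy sites with the highest mean percentile differed in kind. The first, on chromosome 17 from 39980032 to 39982121, had 649, 641 and 2869 fragments in Pax6-HIGH, Pax6-ON and Pax6-OFF cells, at folds of only 1.65, 1.46 and 1.48 over the local background. The single-copy promoter with the highest mean percentile lay beside it, from 39984473 to 39985665 at the transcript AY036118, with 550, 611 and 2253 fragments and folds of 1.50, 1.62 and 1.64. The printed AP-1 site in Sfi1 was of the same kind, with 582, 306 and 504 fragments and folds of 2.30, 2.29 and 2.25. A site of high local enrichment stood in second place, on chromosome 11 from 108872961 to 108873401 and 68.0 kb from the start of Axin2, with 341, 397 and 1615 fragments at folds of at least 11.4. Another, 8.35 kb from Foxj2, which encodes a forkhead factor, had 468, 233 and 116 fragments and folds of 7.68, 10.2 and 6.41. The single-copy B box site printed above had 248, 186 and 109 fragments. The highest pileups thus included sites of high and of low local enrichment. Whether the sites with many fragments and low folds have copies that the reference lacks was not tested.

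Of the 10 single-copy promoters with the highest mean percentile, 9 belonged to coding genes and 2 were starts of Sfi1, which encodes a centriolar protein. Sp4 had 392, 352 and 425 fragments in Pax6-HIGH, Pax6-ON and Pax6-OFF cells. Leprot had 313, 342 and 271. Zbtb20, which encodes a zinc finger repressor, had 651, 323 and 373 fragments. For Pcmtd1 the values were 623, 276 and 255, and for Pja2, a ubiquitin ligase gene, 554, 235 and 294. A site shared by Hjurp, whose product loads the centromeric histone, and Trpm8, a cold-sensing channel gene, had 346, 253 and 392. At Kbtbd8 on chromosome 6 the values were 511, 335 and 188. These 7 promoters, unlike the second Sfi1 start (folds of 1.42, 2.21 and 1.46), had folds between 5.16 (Sp4 in Pax6-OFF cells) and 11.6 (Kbtbd8 in Pax6-ON cells).

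At the other end, some sites were common but stood high in a single line. The distal site with the largest shift to Pax6-HIGH cells, in an intron of Nceh1, had 175, 44 and 28 fragments in Pax6-HIGH, Pax6-ON and Pax6-OFF cells, and the next, in an intron of Itpr1, which encodes an IP3 receptor, had 187, 43 and 33. Both held the AP-1 motif. The promoters with the largest such shift were Grcc10 (267, 40 and 32 fragments) and Cdkn1b, which encodes the cell cycle inhibitor p27 (261, 43 and 34), both on chromosome 6. Toward Pax6-ON cells the largest shift was at a distal site 181 kb from Adcyap1, with 33, 234 and 34 fragments, and among promoters at Eps8, an actin regulator (33, 106 and 29). Toward Pax6-OFF cells the largest distal shifts were at repeated sites, with 38, 37 and 122 fragments 104 kb from 4930591A17Rik and 45, 40 and 174 in an intron of Arhgap21, and the promoters were Syde2 (30, 43 and 76) and Tab1, a kinase adaptor (28, 38 and 65). Pileups are not scaled for depth, and these sites were picked for their shifts.

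What the rule did not use was the sequence. Common promoters had a median GC content of 65.1% and a median ratio of observed to expected CpG of 0.83 within 250 bp of the summit, against 59.7% and 0.64 for single-line promoters. The single-line sets were mostly of Pax6-HIGH cells, with 3222 of 4421 promoters and 12190 of 16046 single-copy distal intervals. A site was called CpG-rich where the GC content exceeded 50% and the ratio exceeded 0.6. This held for 89.3% of common promoters (88.2 to 90.3) and 53.5% of single-line ones, a difference of 35.8 percentage points (95% Newcombe interval 34.0 to 37.6). Among single-copy distal sites it held for 107 of the 343 common ones (31.2%) and 1.95% of single-line ones (difference 29.2 points, 24.6 to 34.3). Single-copy distal common sites were less often in introns (31.5% against 44.8%, difference −13.3 points, −18.0 to −8.13) and lay at a median of 16.5 kb from the nearest start, against 27.7 kb. When the sequences within 1000 bp of each were compared with RefSeq promoters (GRCm38.p6, matched by sequence only), 62 of 343 shared at least 100 words with one, and these were 36 of the 107 CpG-rich and 26 of the 236 other sites. Single-line intervals were not compared in this way. The count therefore has no background share and does not set the common sites apart.

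The motifs differed between kinds of common site. At common promoters the Sp/KLF box was in 71.0% of windows, CCAAT in 40.4%, the NRF1 motif GCGCNTGCG in 15.3% and the ETS motif in 14.5%, while AP-1 was in 2.55%. Over all 11693 promoter intervals these shares were 59.3%, 30.9%, 10.9%, 12.3% and 4.69%. Since a GC-rich window holds such motifs more often, CpG-rich promoters were also compared with each other. Among them CCAAT was in 39.9% of common and 21.7% of single-line sites (difference 18.2 points, 15.8 to 20.6), Sp/KLF in 74.4% and 64.1% (10.3 points, 7.80 to 12.7) and NRF1 in 16.7% and 8.75% (interval of the difference 6.23 to 9.73). For ETS the difference was 1.66 points, with an interval that included 0 (−0.25 to 3.55).

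Single-copy distal common sites were themselves of 2 sorts. The 107 CpG-rich ones resembled promoters in composition, with Sp/KLF in 72.0%, CCAAT in 43.0% and AP-1 in 4.67%. Their median percentiles were 88.5, 58.6 and 76.1 in Pax6-HIGH, Pax6-ON and Pax6-OFF cells. In CpG-rich single-line single-copy distal intervals these motifs were in 56.2%, 18.5% and 5.75%. The differences were 15.7 points (5.11 to 25.2), 24.5 points (14.3 to 34.7) and −1.08 points (−5.21 to 5.09). A low AP-1 share was thus not particular to the common sites of this sort. The other 236 common sites had AP-1 in 45.8% and Sp/KLF in 14.8%, with median percentiles of 67.4, 55.2 and 55.7. Among sites that were not CpG-rich, AP-1 was in 23.7% of single-line single-copy distal intervals, a difference of 22.0 points (15.7 to 28.4). The single-line sites differed by line. Over single-copy distal sites of any composition, AP-1 was in 62.9% of those of Pax6-ON (60.8 to 64.9), 37.0% of those of Pax6-OFF (34.7 to 39.3) and 14.5% of those of Pax6-HIGH cells (13.8 to 15.1), against 32.9% of common sites (28.2 to 38.1). With repeated sites included the order was the opposite, with AP-1 in 13.3% of distal common and 20.5% of single-line distal sites (difference −7.21 points, −9.32 to −4.81). Among single-copy sites the common share thus lay above that of Pax6-HIGH cells alone and below that of Pax6-ON cells alone. It also lay below that of 2-line single-copy distal sites, which was 40.7% (38.2 to 43.2). The motif of GATA factors, spelled AGATAA in the search, was in 4.08% of common against 11.5% of single-line single-copy distal sites. For the box TATAAA the shares were 4.08% and 8.61%. In 2-line single-copy distal sites the GATA motif was in 6.85% and TATAAA in 5.06%. For these AT-rich motifs sites of like composition were not compared, although the median GC content was 54.5% in common and 47.1% in single-line single-copy distal sites.

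For the CTCF core the difference was small and depended on the motif and on the CpG content of the sites. The core was in 93 of the 932 (9.98%, 8.22 to 12.1) and in 6.96% of single-line distal intervals (difference 3.02 points, 1.22 to 5.14). Of those 93 sites, 45 belonged to the repeated YY1 and ETS group printed above. With the strict form of the core the order turned, at 0.97% of distal common sites against 2.27% of single-line ones (difference −1.31 points, −1.81 to −0.42). Among single-copy sites the core was in 10.2% of common and 7.21% of single-line intervals, and the strict form in 2.04% and 2.63% (difference −0.59 points, −1.67 to 1.54). Within CpG-rich single-copy distal sites the core was in 12.1% of common and 17.3% of single-line ones (interval of the difference −11.8 to 3.33). Within those not CpG-rich the shares were 9.32% and 7.01% (−0.80 to 6.72). At like CpG content both intervals thus held values of either sign. Common promoters had the core in 10.8% of windows. A match is a description of letters, and no CTCF measurement was used.

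**Figure D4:**
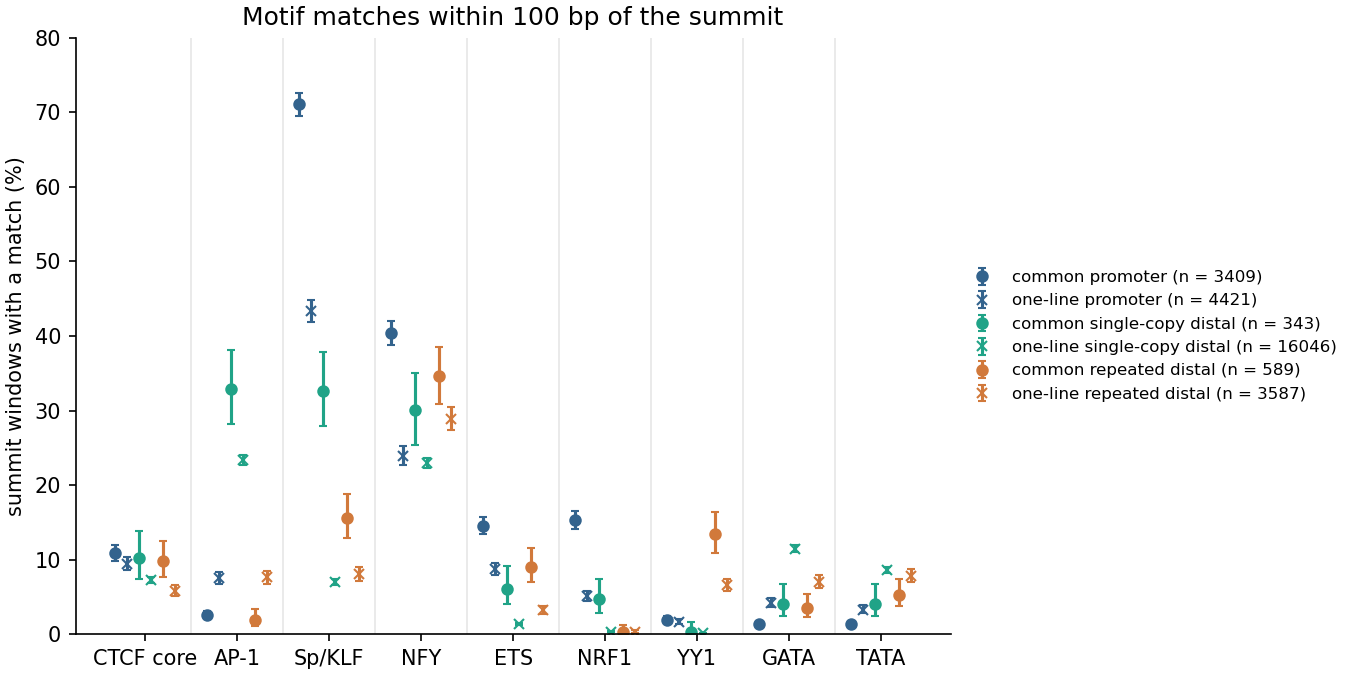
Share of 201 bp summit windows with a match (%, vertical axis) for 9 motifs, with 95% Wilson intervals, in common (circles) and single-line (crosses) sites at promoters (blue), single-copy distal (green) and repeated distal (orange) places. Sp/KLF reaches 71.0% at common promoters, AP-1 32.9% at single-copy and YY1 13.4% at repeated distal common sites.

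The 589 repeated distal common sites fell into 292 groups, of which 251 held a single site, and the 3 largest groups held 184 sites (31.2%). Words had over 100 copies in 236 sites and at most 2 in 121, so high-copy and low-copy repeats were both present. The YY1 motif was in 80 distal common sites, 76 of them in the pair of groups with that motif, and CCAAT in 204 repeated ones, 95 of them in the CCAAT group. Median pileups in the CCAAT group were 58.5, 48.0 and 58.0 fragments in Pax6-HIGH, Pax6-ON and Pax6-OFF cells, and in the YY1 and ETS group 62.0, 39.0 and 57.0. The B box group of chromosome 6 stood higher, with ranges of 120 to 462, 56 to 112 and 75 to 282 fragments in the same order of lines. Of the distal common sites the highest pileup was at a repeated site on chromosome 12 from 98299644 to 98299996, with 61036, 201526 and 98586 fragments, and all of its words also occur in the mitochondrial genome. Words of mitochondrial DNA were found in 6 common sites, 4 of them at promoters. How many reads were placed at the wrong copy was not tested.

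Common sites marked the starts of 3785 of the 21281 protein-coding genes (17.8%, which is the background for the gene lists below), while Pax6-HIGH, Pax6-OFF and Pax6-ON peaks of any kind marked 47.1%, 36.9% and 21.9%. Coding genes supplied 3304 of the 3409 common promoters (96.9%), and 492 had coding starts on both strands. The promoters of the genes were CpG-rich in 85.1% of those open in all 3 lines, 81.4% of those open in 2, 64.6% of those open in 1 and 17.6% of those open in none. Of 10338 CpG-rich coding promoters 31.2% had a common site, against 5.10% of the 10943 others. Among the CpG-rich genes, 434 of the 2068 with the shortest span had a common site (19.3 to 22.8%), against 780 of 2067 with a span of 33.8 to 74.0 kb (35.7 to 39.8%) and 650 of the 2068 with the longest span (29.5 to 33.5%). Most CpG-rich coding promoters therefore had no common site in these calls.

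The gene lists were read against both backgrounds, 17.8% of coding genes and 31.2% of CpG-rich promoters. The highest shares were those of the heat shock genes, whose products refold proteins, with 8 of 11, and the chaperonin subunits, with 5 of 8. Hsph1, a partner of Hsp70, had 151, 176 and 195 fragments in Pax6-HIGH, Pax6-ON and Pax6-OFF cells, and Hsp90b1, the chaperone of the endoplasmic reticulum, had 237, 127 and 138. The mitochondrial chaperonin genes Hspd1 and Hspe1 shared a site with 250, 74 and 89. The 3 heat shock genes without a common site were Hsp90aa1, Hsp90ab1 and Hspa9, of which Hsp90aa1 had peaks of all 3 lines in separate intervals. Among chaperonin subunits, Cct7 had 283, 69 and 77 fragments and Cct6a 86, 91 and 67, while Cct2, Cct3 and Cct4 lacked only the Pax6-ON peak. The Wilson intervals were 43.4 to 90.3% for heat shock genes and 30.6 to 86.3% for chaperonin subunits. Only the first lay above both backgrounds as a whole. The gene lists were chosen with earlier results of these data known, and the shared site of Hspd1 and Hspe1 counted for both genes. Here and for the lists below, the place of an interval is therefore a description and not a test.

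Genes of DNA replication origins had 9 of 19 (27.3 to 68.3%), and 6 of the 16 with a CpG-rich promoter. Orc4, a subunit of the origin recognition complex, had 257, 150 and 109 fragments, and Gins1, a subunit of the replicative helicase, had 157, 132 and 92. Coat proteins of transport vesicles had common sites at 7 of 17 genes (21.6 to 64.0%), with 241, 120 and 138 fragments at Sec23a. Cytosolic tRNA synthetases and nucleoporins had 8 of 20 each (21.9 to 61.3%), with 167, 67 and 100 fragments at Tars and 121, 72 and 164 at Nup107. The list for complex I of the respiratory chain, taken by Nduf symbol and holding factors as well as subunits, had 15 of 40 (24.2 to 53.0%). These shares also lay above both backgrounds, from 37.5% for the complex I list to 47.4% for origin genes. All these intervals include the share of CpG-rich promoters, as does that of chaperonin subunits. Of the genes with Nduf symbols, Ndufa4 (346, 103 and 81 fragments) and Ndufa5 (253, 98 and 87) both lay on chromosome 6. Genes with Eif symbols had 17 of 55 (30.9%), a list that holds translation initiation factors and also other genes, such as the Eif2ak kinases. Mitochondrial ribosomal proteins had 23 of 76 (30.3%), and both shares were close to that of CpG-rich promoters. The highest sites of these lists were at Eif2ak3, the stress kinase PERK (541, 216 and 110 fragments), and at Mrps14 (328, 123 and 128).

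Cytosolic ribosomal proteins had 11 of 76 (14.5%, 8.28 to 24.1), an interval that includes the share of all coding genes and lies below that of CpG-rich promoters, although 67 of the 76 promoters were CpG-rich and Pax6-HIGH peaks marked 59 and Pax6-OFF peaks 39. All 11 genes with a Pax6-ON peak had a common site. Rpl37 stood highest, with 274, 165 and 148 fragments, before Rps29 with 173, 125 and 112. These genes were short, with a median span of 3.40 kb. Proteasome subunits had 7 of 38 (9.22 to 33.4%), RNA polymerase II subunits 2 of 12 (4.70 to 44.8%) and Sm and SF3 splicing proteins 4 of 20 (8.07 to 41.6%), and these intervals include both backgrounds. The polymerase genes were Polr2b, with 146, 88 and 153 fragments, and Polr2h, with 107, 51 and 97. Histone genes that are expressed in S phase had 6 of 67, against 55 with a Pax6-HIGH peak, 35 with a Pax6-OFF peak and 8 with a Pax6-ON peak. The part of read placement between gene copies was not tested. In the lists of ribosomal proteins, proteasome, chaperonin and RNA polymerase II subunits, tRNA synthetases, complex I and splicing proteins, every gene with a Pax6-ON peak had a common site, and over all coding genes 4662 had a Pax6-ON peak and 3785 a common site.

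Common sites marked 0 of 1081 olfactory receptor genes (upper Wilson limit 0.35%), 0 of 46 keratins (7.71%), 0 of 92 potassium channels (4.01%) and 0 of 39 Hox genes (8.97%), although 38 potassium channel and 21 Hox promoters were CpG-rich. Solute carriers, which include transporters of all cells and of few, had 50 of 341 (14.7%), with 354, 165 and 186 fragments at Slc39a10, a zinc transporter. By chromosome, the share of coding genes with a common site ran from 10.2% on chromosome 7 to 24.5% on chromosome 5.

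**Figure D5:**
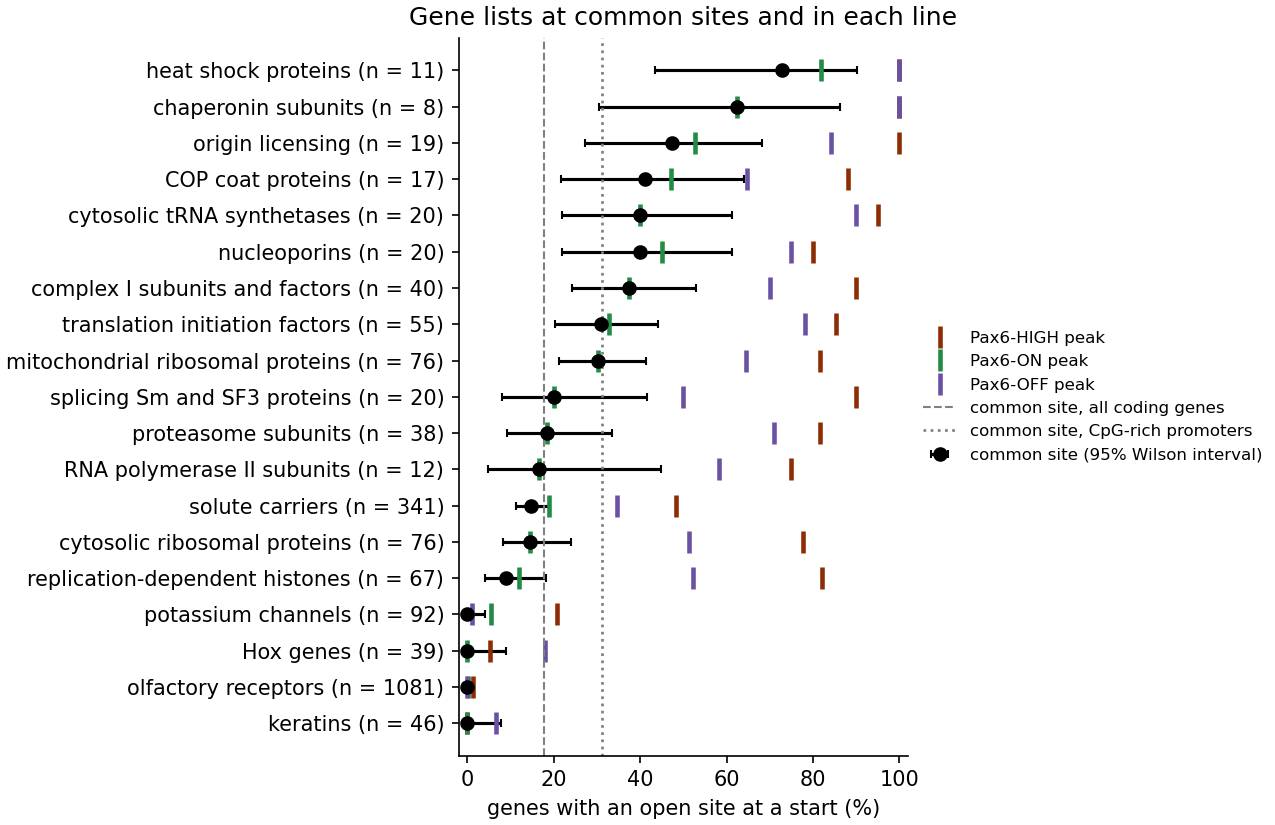
Share of genes with an open site at a start (%, horizontal axis) for 19 gene lists, with black points and 95% Wilson intervals for common sites and coloured marks for peaks of each line, and dashed and dotted lines at the backgrounds of 17.8% and 31.2%. The Pax6-ON marks lie at or near the black points, from 0% in Hox genes and keratins to 81.8% against 72.7% in heat shock genes.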

How the data were processed

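ATAC-seq libraries, 2 for each of 3 cell lines, were trimmed with Trim Galore 0.4.1 and aligned to mm9 with Bowtie2 2.2.6, per the submitters' processing notes. Both replicates of a line were pooled by the authors, whose peak caller was MACS2 2.1.1, run on paired-end fragments with all duplicates kept, no control library and a q-value limit of 0.05. The deposited pileup is a signal, the fragments at the summit, not scaled for depth. The deposited fold enrichment is a ratio to background estimated from the same libraries, locally over 6250 bp, and the authors' q-values are deposited as −log10 values. The tables equal the deposited narrowPeak lists row by row in all 3 lines.

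Union intervals, annotation by GENCODE M1 on NCBIM37 (the assembly of mm9), motifs and word counts were computed with Python 3.11.15, pandas 2.3.3, NumPy, SciPy 1.17.1 and pysam 0.24.0. A pileup percentile is the rank among the peaks of the same line on chromosomes 1 to 19. An interval with several peaks of a line took the highest, and windows were centred on the summit with the highest percentile. The strict CTCF core restricts each free base to 2 letters. Wilson and Newcombe intervals at 95% cover counting error only, and fragments are not independent molecules. With 1 pooled call per line there is no replicate error and no test between lines. The members, gene lists and motifs were chosen with earlier results of these data known. Named sites followed rules on percentile, shift between lines, repeated words and distance to the q-value cut, and named genes were those of highest mean percentile in each list and, where at most 5 lacked a common site, those genes. Alternatives were q-value cuts, an equal number of peaks per line, overlap rules, promoter distances, window sizes, a strict motif, and omission of repeated sites or of chromosome 6. Printed sequences leave out chromosome 18. A renal marker of the list is not reported here. The scripts were tested on simulated intervals, words and motifs.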

Additional observations from a re-analysis of the deposited data

Results flagged for a closer look

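The rule for common sites was limited to chromosomes 1 to 19. On chromosome X, which no comparison above uses, 134 of 844 intervals (15.9%) held a peak of all 3 lines, and this signal in data outside the main measurement is given as a value only.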

How the results depend on the processing

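Each line is 1 pooled call, so no replicate could be left out, and the precision of any pileup near the minimum of 25 to 30 fragments is limited by counting error. No paired analysis was possible because the replicates of each line were pooled before the calls were made and no result comes from a test. Of 49 recomputed values 32 stayed within the interval of the reported value (or within 1.5 times for the count), and 17 moved. The number of common sites stayed between 3260 (equal numbers of 9418 peaks per line) and 4328 (a base covered by all 3 lines). The share at promoters moved to 86.7% with equal numbers, 82.9% with summits within 200 bp, 80.005% with a wider promoter distance, 76.1% with starts of protein-coding genes only and 90.4% without repeated sites. It was 79.96% with RefSeq promoter matches counted as promoters, an alternative chosen after seeing the data. The CTCF core share moved with the search itself, to 5.26% of common and 4.20% of single-line distal sites within 50 bp of the summit, 16.2% and 11.6% within 250 bp, and 0.97% and 2.27% with the strict core, which turned the order of the pair. With equal numbers of peaks it was 5.73% of single-line distal sites, genes with a common site were 14.9% and the median Pax6-ON percentile was 64.5. With summits within 200 bp the last 2 were 15.5% and 59.9. The q-value cut of 0.001, a narrower promoter distance and the omission of chromosome 6 moved none of the values computed for them. The causes of the moves were not tested.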
